A study of Mus musculus with 47 samples.

Results

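Cholesterol is made from acetyl-CoA through mevalonate, and the enzymes of the route are transcribed together under the control of SREBP-2, the product of Srebf2. When sterols are scarce, SCAP escorts SREBP-2 from the endoplasmic reticulum to the Golgi, where it is cleaved so that its amino-terminal part can enter the nucleus, and when sterols are plentiful the INSIG proteins hold SCAP back. Fetal liver and brain both make their own cholesterol, the brain because plasma lipoproteins do not cross the blood-brain barrier. The 7 genes described here were taken by symbol from the 20456 genes of the count table: Hmgcs1 and Idi1 of the mevalonate arm, Fdps at the branch to other isoprenoids, Sqle and Lss of the sterol arm, and the regulators Insig1 and Srebf2. All 7 passed the filter on low counts, and their counts ranged from 47 (Fdps) to 55212 (Hmgcs1) reads per library.

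The counts came from bulk liver, lung and brain of C57BL/6 embryos at E18.5, in 47 libraries. Daxx is a chaperone of histone H3.3, and the study asked which of its functions depend on 2 partners: S226A/S226A embryos carry a substitution that abolishes binding to H3.3, and Y130A/Y130A embryos one that abolishes binding to Atrx. Both knock-in alleles were made in C57BL/6N zygotes with Cas9, with silent changes beside the substitution, and the founders were backcrossed to C57BL/6J, so that each allele is constitutive and present in all cells of the embryo. Each mutant was compared with WT littermates of the same heterozygous intercrosses, and groups held 4 libraries each, except that 3 wild-type lungs represent the Y130A litters. The lung of a further wild-type embryo of these litters had been removed by the authors as an outlier. For litter 2970, the wild-type lung was taken from a different embryo than the other wild-type tissues. The total count per library was 15722147 to 26190403 in the S226A litters and 36351738 to 54885020 in the Y130A litters, so the litter sets also differ in depth, and each mutant was compared with wild types of its own set. The labelled tissues held their defining transcripts. The summed level of 6 hepatocyte markers was 159802 to 253125 CPM (counts relative to the TMM-scaled library size) in liver and at most 1438 CPM in lung. That of 5 alveolar type 2 markers was 9528 to 12953 CPM in the lungs of the S226A litters. In the Y130A litters it was 7657 to 10762.5 CPM in wild-type and 8225 to 10519 CPM in Y130A lungs. That of 4 neuronal markers was 2865 to 3908 CPM in brain. A liver of the S226A wild types (replicate 2) and a Y130A liver (replicate 1) held 140.9 and 103.1 CPM of 5 squamous epithelium transcripts, against at most 5.20 CPM in the other livers.

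On GRCm38, Hmgcs1 (ENSMUSG00000093930.2) spans chr13:119690379-119708260, Idi1 (ENSMUSG00000058258.14) chr13:8885501-8892451, Sqle (ENSMUSG00000022351.14) chr15:59315077-59331192, Lss (ENSMUSG00000033105.12) chr10:76531588-76557138, Insig1 (ENSMUSG00000045294.11) chr5:28071363-28078662 and Srebf2 (ENSMUSG00000022463.8) chr15:82147181-82205379, all on the plus strand. Fdps (ENSMUSG00000059743.12) spans chr3:89093588-89101959 on the minus strand. Fdps and Idi1 share sequence with other annotated genes. Of the 100-base windows along the longest coding transcript, 75.8% in Fdps and 27.6% in Idi1 were also found in transcripts of 3 other genes each, among them the processed pseudogenes Gm3571 and Gm5873 for Fdps and Gm13502 and Gm35570 for Idi1. The corresponding share was 10.8% in Hmgcs1 and 1.31% in Lss, each from 1 overlapping antisense gene, and 0% in Sqle, Insig1 and Srebf2. The levels of Fdps and Idi1 are therefore uncertain, since a read that maps to several places or genes may not have been counted.

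RefSeq promoter sequences on GRCm38.p6 (250 bases before to 50 bases after the start) matched 5 of the 7 genes, and not Sqle or Fdps. Both strands were searched for a sterol response core (CACNCCAC), the CCAAT box (CCAAT) and a GC box (GGGCGG). The sterol response core was found in 2 of the 5 promoters, Hmgcs1 and Insig1, and in 6.24% of 32851 promoters. The CCAAT box was found in 5 of 5 against 37.4% of all promoters, and the GC box in 5 of 5 against 35.7%, or 49.7% of the 19194 promoters of genes in the count table. Shown are the 150 bases before the start of Hmgcs1 and Insig1, which hold the sterol response core, and of Srebf2, whose level behaved differently from theirs. All are given on the plus strand, 5′ to 3′, and capitals mark the sterol response core (CACCCCAC in Hmgcs1, GTGGCGTG on the reverse strand of Insig1) and CCAAT boxes read on the reverse strand (ATTGG). None of the marked matches overlap.
Hmgcs1, chr13:119690201-119690350: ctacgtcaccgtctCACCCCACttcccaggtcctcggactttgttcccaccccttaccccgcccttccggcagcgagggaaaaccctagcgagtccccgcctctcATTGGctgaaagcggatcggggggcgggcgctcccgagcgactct
Insig1, chr5:28071262-28071411: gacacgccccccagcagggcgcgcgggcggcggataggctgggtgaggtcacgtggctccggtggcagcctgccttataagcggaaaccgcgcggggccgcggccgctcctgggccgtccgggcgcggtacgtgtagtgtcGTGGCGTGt
Srebf2, chr15:82147119-82147268: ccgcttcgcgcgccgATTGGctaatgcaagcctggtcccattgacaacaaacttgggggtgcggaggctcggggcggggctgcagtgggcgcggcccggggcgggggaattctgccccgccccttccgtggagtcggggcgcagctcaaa
The core begins 136 bases before the RefSeq start in Hmgcs1 and 9 bases before it in Insig1. No match to the core was found in the promoters of Srebf2, Lss and Idi1, which says only that these letters are not in these windows.

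In wild-type embryos, the enzymes of the route were high in liver and brain and low in lung. Hmgcs1, which makes HMG-CoA, lay between 632 and 906 CPM in 8 livers (median 719), between 102 and 161 CPM in 7 lungs (median 154) and between 826 and 972 CPM in 8 brains (median 890). Sqle, the epoxidase of squalene, lay between 166 and 222 CPM in liver (median 213), between 26.2 and 39.7 CPM in lung (median 35.1) and between 193 and 223 CPM in brain (median 206). Neither gene had a lung library that reached the lowest liver or brain library. Lss, which closes squalene epoxide to lanosterol, lay between 422 and 627 CPM in liver (median 523), between 39.9 and 50.6 CPM in lung (median 45.4) and between 107 and 134 CPM in brain (median 125), so that its 3 tissues did not overlap. Insig1 lay between 534 and 1038 CPM in liver (median 709), between 70.1 and 129 CPM in lung (median 93.5) and between 85.2 and 98.4 CPM in brain (median 93.3), and here brain and lung overlapped. Idi1, the isomerase of isopentenyl diphosphate, had medians of 31.2, 6.94 and 19.3 CPM in liver, lung and brain, and Fdps, which makes farnesyl diphosphate, had medians of 32.8, 3.36 and 12.8 CPM. Srebf2 varied least between tissues, with medians of 126, 68.6 and 98.1 CPM, but its lungs spread from 59.2 to 166 CPM.

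With edgeR's quasi-likelihood test and Benjamini-Hochberg adjustment over 16892 genes, 6 of the 7 genes were called higher in liver than in lung at an adjusted p below 0.05 and a log2 fold change beyond 1, where 46.5% of all genes tested were called in either direction. Their log2 fold changes ran from 2.29 ± 0.15 (SE) for Idi1 to 3.54 ± 0.09 for Lss. Srebf2 differed by 0.55 ± 0.11, below the fold limit (adjusted p = 1.03e-05), by 0.83 within the Y130A litters and by 0.28 within the S226A litters (adjusted p = 0.0797). Between liver and brain, 3 of 7 were called (59% of all genes), namely Insig1 by 2.90 ± 0.13, Lss by 2.07 ± 0.08 and Fdps by 1.33 ± 0.15, all higher in liver. Sqle differed between liver and brain by -0.02, with a 95% interval of -0.17 to 0.12. Between lung and brain, 5 of 7 were called (51.2% of all genes), all lower in lung, from -1.47 ± 0.08 for Lss to -2.68 ± 0.10 for Hmgcs1, while Insig1 differed by 0.03 with an interval of -0.23 to 0.29. Insig1, Lss and Fdps were thus called higher in liver than in both other tissues, and the 5 enzymes were called lower in lung than in both others. Because the tissues are bulk samples, fewer cells of a type and less RNA per cell cannot be told apart in these or the following comparisons.

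**Figure D1:**
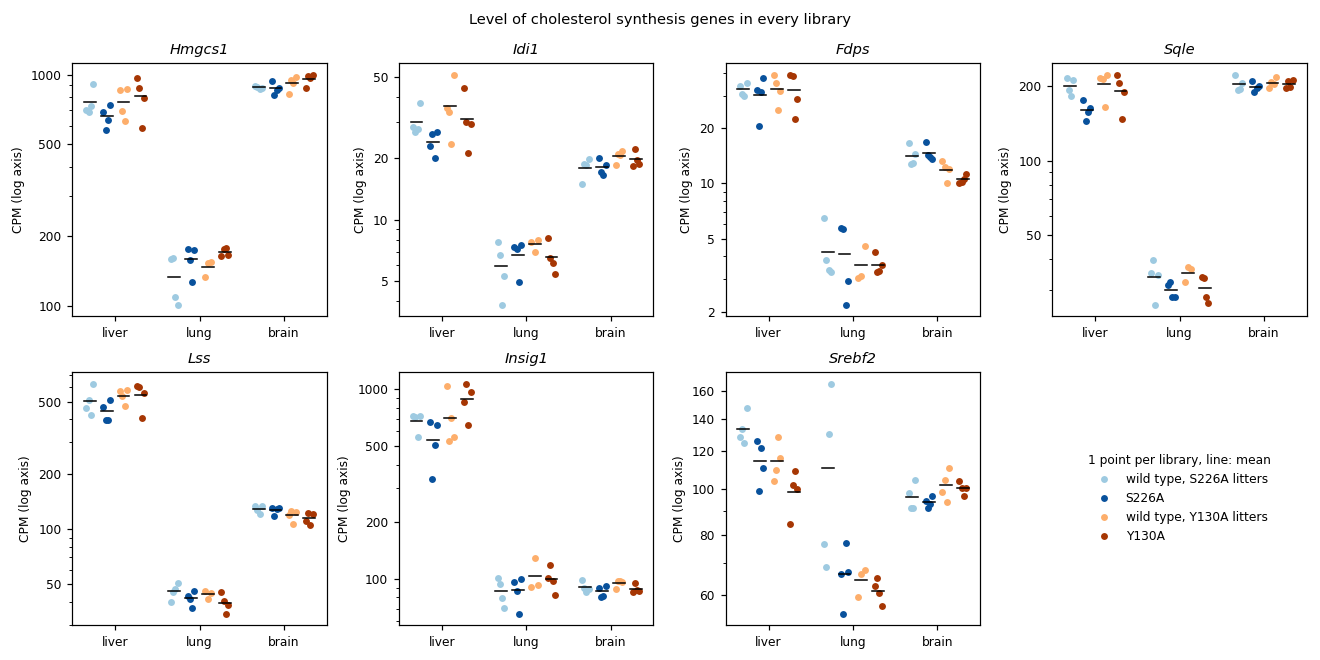
CPM of each of the 7 genes (log axis) in every library, by tissue and group, with 1 point per library and a line at the group mean. Lung lies below liver and brain for the 5 enzymes, Insig1 is high in liver alone, and 2 wild-type lungs of the S226A litters (130.03 and 166 CPM) lie above the other lungs for Srebf2.

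Levels of different genes were compared as CPM per kb of exon. In wild-type liver, Insig1 stood at 224 ± 52.3 (SD, n = 8) and Hmgcs1 at 166 ± 21.9 CPM per kb, and their ranges overlapped. Lss followed at 48.4 ± 6.28, Sqle at 36.5 ± 3.64, Srebf2 at 17.2 ± 1.93, Idi1 at 9.43 ± 2.50 and Fdps at 7.72 ± 0.993 CPM per kb. The ranges of Idi1 and Fdps overlapped, and their order turned when the longest transcript was used as length. In brain the order changed: Hmgcs1 led at 196 ± 10.2 CPM per kb (n = 8), Sqle followed at 37.1 ± 1.99 and Insig1 at 30.0 ± 1.70, and Lss stood below Srebf2 (13.8 ± 0.974) at 11.51 ± 0.798. In lung, Insig1 (30.4 ± 6.04 CPM per kb, n = 7) and Hmgcs1 (30.3 ± 5.39) were level, and Srebf2 at 12.6 ± 5.68 CPM per kb stood above Sqle at 6.22 ± 0.777.

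All 7 genes had estimates below 0 in S226A liver, those of Insig1 and Idi1 as low as that of Sqle, and only Sqle was called. The level of Sqle was 216, 192, 182 and 213 CPM in the wild-type livers of replicates 1 to 4, and 176, 145, 157 and 164 CPM in the S226A livers. Every S226A liver lay below every wild-type liver, and in each of the 4 litters the mutant was lower, by 0.21 to 0.41 on the log2 scale. The log2 fold change was -0.32 ± 0.10 (SE, edgeR's quasi-likelihood test, Benjamini-Hochberg adjusted p = 0.031). That makes 1 of 7 genes called, where 11.7% of all genes tested were called in S226A liver (5.54% called lower). The two-sided exact permutation test gave p = 0.0286, the smallest that 4 against 4 libraries allow, and 0.4 after Benjamini-Hochberg adjustment over the 42 tests of 7 genes in 6 comparisons. Groups lay apart in S226A liver, with every mutant library below, for 5.18% of all genes. The call of Sqle did not outlast the loss of single libraries: the adjusted p was between 0.0505 and 0.0998 without wild-type replicate 1 or 4 or S226A replicate 2, 3 or 4.

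The other 6 genes had negative estimates in S226A liver, none of which was called. Insig1 was at 720, 711, 558 and 722 CPM in wild-type livers and at 669, 335, 506 and 644 CPM in S226A livers. The lowest S226A liver, replicate 2 of litter 2881, was also the lowest of the group for Hmgcs1 (576 CPM), Sqle, Fdps (20.6 CPM) and Srebf2 (98.9 CPM). The log2 fold change of Insig1 was -0.33 ± 0.17 (adjusted p = 0.235), that of Idi1 -0.33 ± 0.19 (0.288), that of Srebf2 -0.22 ± 0.14 (0.362), that of Hmgcs1 -0.20 ± 0.13 (0.357), that of Lss -0.20 ± 0.11 (0.248) and that of Fdps -0.10 ± 0.21 (0.849). The median of the 7 was -0.22 against -0.01 for all genes, of which 51.6% had an estimate below 0. Hmgcs1, Idi1, Insig1 and Srebf2 were lower in the mutant in 4 of 4 litters, Lss in 3 of 4 and Fdps in 2 of 4. The litter nearest to 0 differed by -0.04 for Hmgcs1, -0.03 for Idi1, -0.11 for Insig1 and -0.03 for Srebf2. The share of all genes lower in 4 of 4 litters is not given here. Without S226A replicate 2, the estimate of Fdps turned to 0.05 and that of Insig1 shrank to -0.16. Without wild-type replicate 4, the estimates of Lss, Hmgcs1 and Idi1 shrank to -0.08, -0.11 and -0.21.

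**Figure D2:**
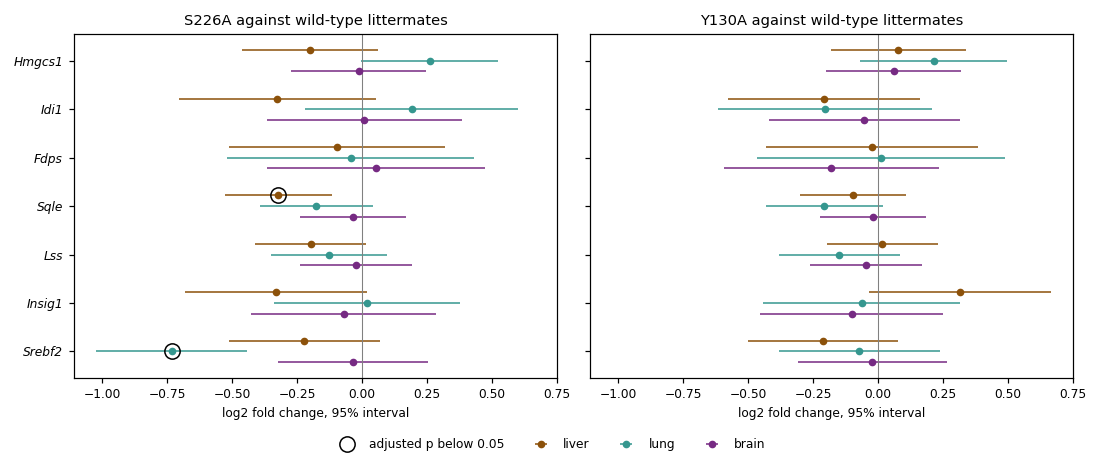
Log2 fold change of each gene against wild-type littermates, with 95% intervals, for S226A (left) and Y130A (right) and by tissue, with circles around values at an adjusted p below 0.05. Sqle in S226A liver (-0.32) and Srebf2 in S226A lung (-0.73) are the circled values, and the 7 liver values of S226A lie below 0.

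The rest of the route, from lists written with earlier results of these data known, stood as follows in S226A liver. Of all genes tested, 11.7% were called in this comparison, 5.54% lower. In the sterol arm, Sc5d, a late desaturase, fell by 0.40 on the log2 scale (adjusted p = 0.0104), 1 of 11 genes, and 11 of 11 had estimates below 0 (median -0.21). Hsd17b7 (-0.42, adjusted p = 0.0505), the lanosterol demethylase Cyp51 (-0.42, 0.0815) and Msmo1 (-0.35, 0.103) came next. With litter as a block, Hsd17b7 and Cyp51 were called too (adjusted p = 0.0263 and 0.0053), 4 of 11 in all, and 3 of 11 were called by DESeq2 and 3 of 11 without the livers that held squamous transcripts. In the mevalonate arm 0 of 5 genes were called by edgeR, 0 at an unadjusted p below 0.05 (24.7% of all genes) and 0 by DESeq2 (median -0.09). Among the regulators, Insig2, the second INSIG, fell by 0.44 (adjusted p = 0.0212), 1 of 5, while the escort Scap was at -0.26 (0.0871) and Srebf1 at -0.26 (0.12). Of 4 other SREBP-2 targets, the sterol carrier Stard4 fell by 0.37 (adjusted p = 0.0136), and Acss2 was at -0.45 (0.101). Fatty acid synthesis, which is driven mainly by SREBP-1c in liver, had 4 of 7 genes called: the elongase Elovl6 fell by 0.44 (adjusted p = 0.00867), the acetyl-CoA carboxylase Acaca by 0.34 (0.0104) and the synthase Fasn by 0.42 (0.0435), and the malic enzyme Me1 rose by 0.96 (1.88e-05). Of 6 genes of the oxysterol response and of sterol esterification, 0 were called by edgeR, 1 at an unadjusted p below 0.05 (Soat1, 0.23) and 0 by DESeq2. In a fit of the liver libraries of these litters alone, Sc5d, Insig2, Acaca and Fasn lost the call (adjusted p = 0.093, 0.103, 0.102 and 0.123), Cyp51 gained it (0.01), and the lists held 1 (sterol arm), 0 (regulators), 1 (other targets) and 3 (fatty acid synthesis) called genes. With litter as a block, 3 of 5 regulators, 2 of 4 other targets and 5 of 7 genes of fatty acid synthesis were called. The 11.7% and 5.54% are shares of the main fit. The shares of all genes called with the block, by DESeq2 or in the other fits are not given here, so those counts have no background beside them. Single libraries also decided calls. Leaving out 1 liver at a time, Fasn lost the call in 5 of 8 fits (adjusted p up to 0.193, without S226A replicate 2), Sc5d, Insig2 and Stard4 in 2 of 8 each, and Elovl6 and Acaca in 1 of 8 each, while Me1 was called in all 8. Over these fits, 0 to 2 genes were called in the sterol arm, 0 to 2 among the regulators, 0 to 2 among the other targets and 2 to 5 in fatty acid synthesis, with the lowest counts without S226A replicate 2 or without wild-type replicate 1, 3 or 4.

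Markers of cell types also differed between these livers. Of 6 hepatocyte markers 0 were called by edgeR (median -0.15), and 0 had an unadjusted p below 0.05 (24.7% of all genes). Yet their summed level was 159802 to 193157 CPM in S226A and 197986 to 203356 CPM in wild-type livers, without overlap. All 7 neutrophil markers rose (median 1.42), all 6 macrophage markers fell (median -2.45), and 6 of 6 erythroid markers had negative estimates with 0 called (median -0.30). The part of these differences in the values of Sqle and the other genes was not tested.

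In Y130A liver, 0 of 7 genes were called by edgeR or DESeq2 (0.272% of all genes by edgeR) and 0 had an unadjusted p below 0.05 (9.22% of all genes). Insig1 was at 1038, 534, 706 and 558 CPM in the wild types of replicates 1 to 4 and at 852, 1069, 649 and 961 CPM in Y130A livers, and these replicate numbers are not litters. Against its own littermate, every Y130A liver was higher, by 0.04 to 0.61 on the log2 scale. The groups overlapped, and the log2 fold change was 0.32 ± 0.17 (edgeR, adjusted p = 0.633). The S226A effect minus the Y130A effect was -0.65 ± 0.25 for Insig1 in liver, with a 95% interval of -1.14 to -0.15 and an adjusted p of 0.118 (5.9% of all genes called). With litter as a block it was -0.72 ± 0.18 and was called (adjusted p = 0.014), and it was also called when the Y130A litters' wild-type replicate 1 was left out (-0.89, adjusted p = 0.0138). Srebf2 was lower in the mutant in 4 of 4 litters here as in S226A liver, but some of the differences were near 0. They ran from -0.46 to -0.004 on the log2 scale here and from -0.43 to -0.03 in S226A liver. The log2 fold change of Srebf2 in Y130A liver was -0.21 ± 0.14 (edgeR, adjusted p = 0.76). Its difference between the mutants was -0.01, with an interval of -0.42 to 0.40. For Sqle the difference between the mutants was -0.23, with an interval of -0.52 to 0.06, so the fall of Sqle was not shown to differ between the mutants.

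**Figure D3:**
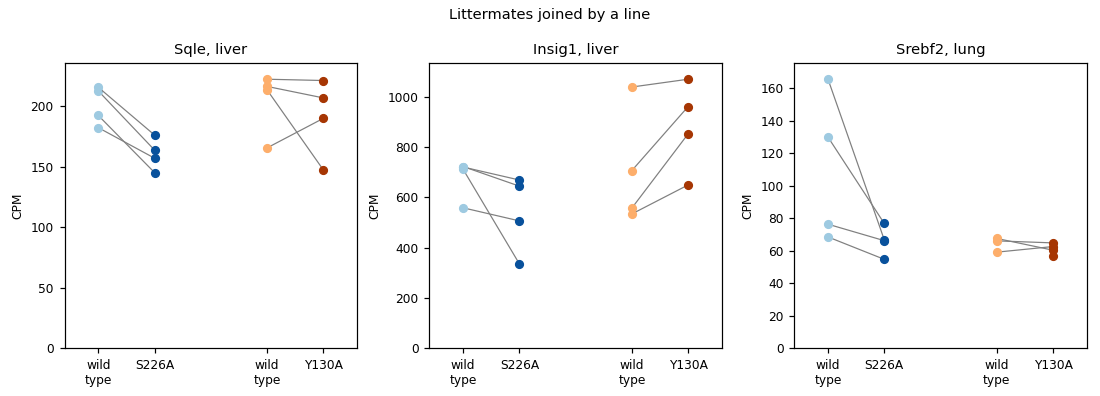
CPM of Sqle and Insig1 in liver and of Srebf2 in lung, with a line between the mutant and wild-type library of each litter. Sqle is lower in all 4 S226A mutants than in their littermates, Insig1 is lower in 4 of 4 S226A and higher in 4 of 4 Y130A mutants, and the S226A lungs have values of 54.8 to 76.9 CPM for Srebf2, each below its littermate.

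Srebf2 was the only gene of the 7 called in S226A lung. Its level was 76.4, 68.6, 130.03 and 166 CPM in the wild-type lungs of replicates 1 to 4, and 66.3, 54.8, 76.9 and 66.8 CPM in the S226A lungs. Wild-type replicates 3 and 4 lay far above the others, while the 4 mutant lungs lay close together, and the highest mutant passed the lower 2 wild types. The log2 fold change was -0.73 ± 0.14 (edgeR, adjusted p = 0.00249), 1 of 7 genes where 1.88% of all genes were called (1.02% lower). The mutant was lower in 4 of 4 litters, by 0.20 to 1.31 on the log2 scale, but the groups overlapped and the exact permutation test gave p = 0.0857 (two-sided). Without wild-type replicate 4, from litter 2970, the log2 fold change was -0.47 and no longer called (adjusted p = 0.0542). The study kept all lungs of this comparison but named a wild-type lung as a possible outlier for transposable elements and repeated a check without it, under a name that differs from this library's only in the order of its digits. The main fit shares its estimate of spread with all other groups and tissues. In an edgeR fit of the S226A and wild-type lungs alone, the log2 fold change of Srebf2 was -0.75 ± 0.25. It was not called there either (adjusted p = 0.679). Wild-type lungs from the Y130A litters were at 59.2, 66.2 and 67.7 CPM, within the range of the S226A mutants. Between the wild types of both sets, Srebf2 was higher in the S226A litters by 0.77 ± 0.16 (adjusted p = 0.000421, 20.1% of all genes called), and was not called in a fit of these lungs alone (0.78 ± 0.27, 0.123).

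Of the enzymes that SREBP-2 is known to drive, none of the 5 was called in those lungs. Hmgcs1 was at 159, 161, 110 and 102 CPM in wild-type replicates 1 to 4, lowest in the lungs where Srebf2 was highest, and at 177, 158, 127 and 174 CPM in S226A. Its log2 fold change was 0.26 ± 0.13 (edgeR, adjusted p = 0.317), and that of Sqle was -0.18 ± 0.11 (0.431). Hsd17b7 of the sterol arm fell by 0.64 (edgeR, adjusted p = 0.022), and it was not called without S226A replicate 1 (0.103) or in a fit of these lungs alone (0.685). In the other lists of the route and of lipid control, 0 of 27 genes were called by edgeR in S226A lung, with 5 at an unadjusted p below 0.05, near the 16.2% of all genes that reached it, and 0 called by DESeq2. Without wild-type replicate 1, edgeR called 2 of the regulators, and without replicate 2 it called 1 regulator and 1 gene of fatty acid synthesis. The summed level of 4 cell cycle markers was 696 to 1024 CPM in S226A and 417 to 732 CPM in wild-type lungs, with 4 of 4 at an unadjusted p below 0.05 (16.2% of all genes) and 0 called by edgeR (median 0.48), 4 of 7 neutrophil markers rose (median 1.21), and of 6 macrophage markers 1 rose and 2 fell. The alveolar type 2 markers summed to 9528 to 12422 CPM in S226A and 9616 to 12953 CPM in wild-type lungs, and 0 of 5 were called or had an unadjusted p below 0.05. The part of these markers in the value of Srebf2 was not tested.

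The effect of S226A differed between liver and lung by -0.46 ± 0.18 for Hmgcs1 and by 0.51 ± 0.20 for Srebf2, of opposite sign, and neither was called (edgeR, adjusted p = 0.129 and 0.128; 6.9% of all genes called). With litter as a block, the difference for Hmgcs1 was -0.48 ± 0.13 and was called (adjusted p = 0.0244). The difference for Srebf2 between lung and brain was -0.70 ± 0.20 (adjusted p = 0.34; 0.124% of all genes called), and the S226A minus Y130A effect in lung was -0.66 ± 0.21 (0.213; 0.308%). The differences of Srebf2 hung on single wild-type lungs. Without replicate 4 they were 0.25 between liver and lung, -0.43 between lung and brain and -0.40 between the mutants (adjusted p = 0.476, 0.746 and 0.509). Without replicate 2 all 3 were called (adjusted p = 0.0109, 0.0147 and 0.0186), as was that of Hmgcs1 (0.0444), and without replicate 1 that of Srebf2 between liver and lung (0.0284).

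In S226A brain, Y130A lung and Y130A brain, edgeR and DESeq2 called 0 of 7 genes, where edgeR called 0.243%, 0.0178% and 0.00592% of all genes, and 0 had an unadjusted p below 0.05, where 2.27%, 2.92% and 2.22% of all genes did. In brain the estimates of the 7 genes lay between -0.07 and 0.05 in S226A and between -0.18 and 0.06 in Y130A. The tightest intervals were those of Sqle, -0.24 to 0.17 and -0.22 to 0.18. In Y130A lung, Hmgcs1 was at 165, 176, 178 and 166 CPM against 134, 154 and 155 CPM in the wild types, so that every mutant lung was higher. Groups lay apart in this comparison for 4.16% of all genes. The log2 fold change of Hmgcs1 there was 0.21 ± 0.14 (edgeR, adjusted p = 1), and the two-sided exact permutation test gave p = 0.0286, the smallest that 4 against 3 libraries allow, and 0.4 after adjustment over the 42 tests.

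Within a tissue, the genes varied together from library to library. For each library, the residual of a gene is its log2 CPM minus the mean of its group, so that tissue, genotype and litter set are removed. Across 16 livers, the 15 pairs among the 5 enzymes and Insig1 had a median Pearson r of 0.75, from 0.02 (Idi1 and Insig1) to 0.88 (Hmgcs1 and Lss, Spearman's rho 0.86, r 0.82 without the 2 libraries farthest from the median of Hmgcs1). Hmgcs1 correlated with Sqle at 0.85, and at 0.58 within the S226A litters and 0.94 within the Y130A litters. Against all genes tested, the residual of Hmgcs1 had a median r of 0.05, with 5% of genes above 0.60. Srebf2 stood apart, with r between -0.50 and 0.17 with the other 6, and the relation differed between litter sets: with Sqle it was 0.69 in the S226A litters and -0.81 in the Y130A litters, and with Idi1 it was -0.05 and -0.73. The points share litters and library composition, and no test was run.

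In lung, the median r among the same 15 pairs was 0.50. Over all 21 pairs it was 0.35, against 0.55 in liver, and without S226A replicate 3 it was 0.11. Srebf2 was negative with 5 of the 6, and Lss stood outside as well, between -0.21 and 0.17 with the other 4 enzymes and Insig1. Hmgcs1 and Insig1 correlated at 0.78. Srebf2 was negative with Hmgcs1, at -0.80 over 15 libraries (rho -0.59), where all genes had a median r of -0.04 with Hmgcs1 and 5% lay below -0.75. That relation was -0.88 within the S226A litters and 0.76 within the Y130A litters, so it rests on the former. In brain, where the spread was small, Srebf2 was at 0.67 with Lss and 0.56 with Sqle, but at 0.39 with Fdps, 0.24 with Hmgcs1 and 0.18 with Idi1, where the 5th and 95th percentiles of all genes were -0.47 and 0.55. Sqle correlated with Insig1 at 0.74 and with Hmgcs1 at 0.70. Among all 21 pairs, 16 were positive in liver, 13 in lung and 20 in brain.

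**Figure D4:**
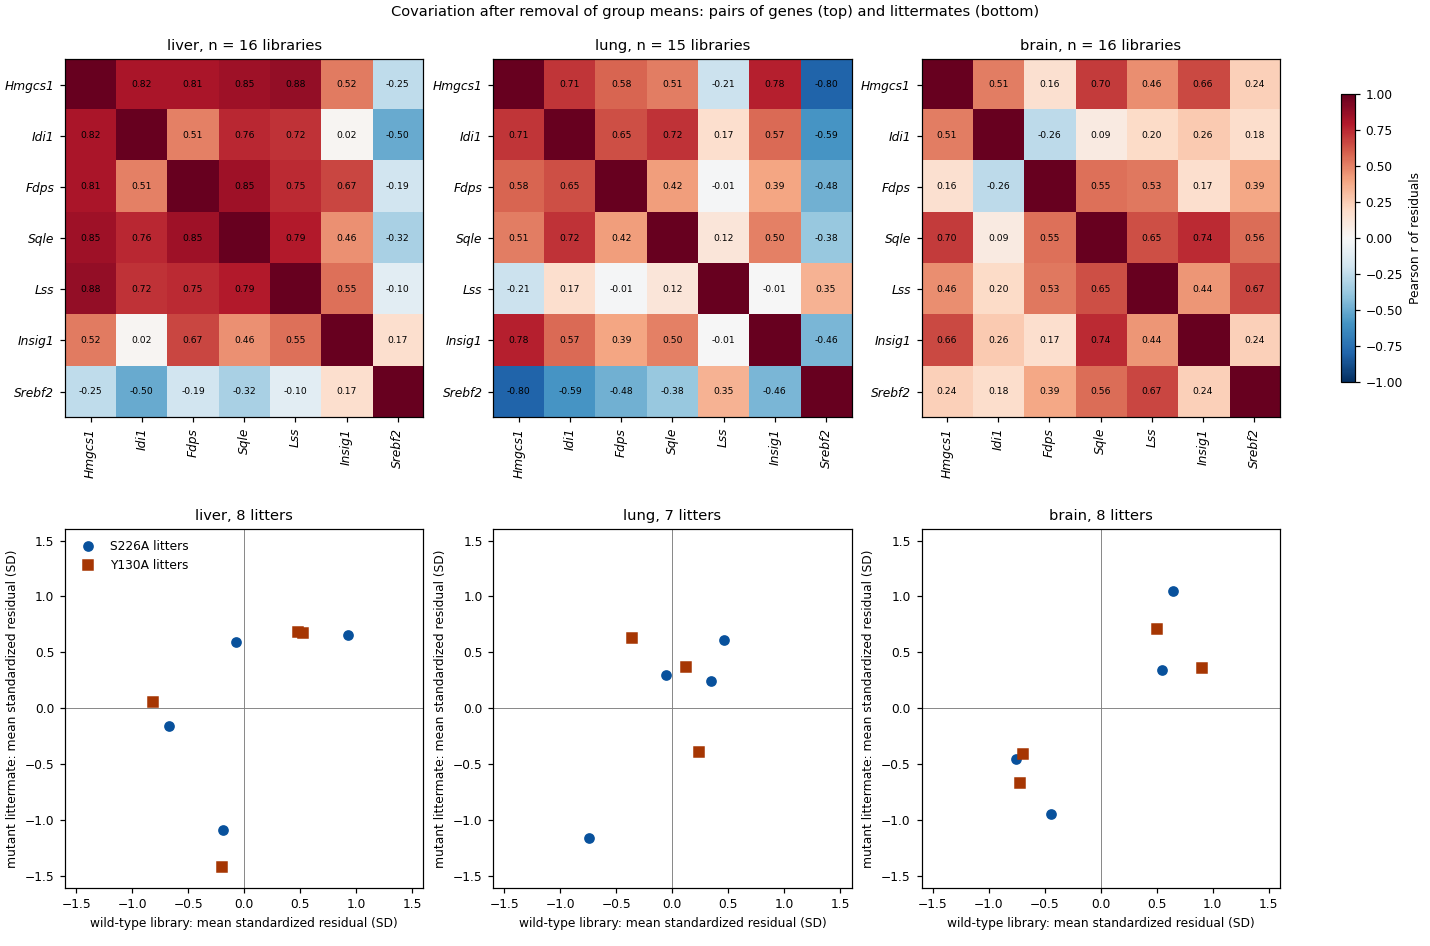
Top, Pearson r of the residuals of each pair of the 7 genes, in 16 livers, 15 lungs and 16 brains. Bottom, mean standardized residual of the 7 genes (in SD) in each mutant library against that of its wild-type littermate, with 1 point per litter: the 8 brain litters lie in the lower left or upper right, 4 in each.

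In brain, the shared part of this variation went with the litter. The mean standardized residual of the 7 genes was above 0 in both the mutant and the wild-type brain of litters 2970, 2972, 2851 and 3069, and below 0 in both brains of litters 2875, 2881, 2848 and 2974. Thus 8 of 8 litters had both brains on the same side of their group means, against 6 of 8 in liver and 4 of 7 in lung. Each side held 2 S226A and 2 Y130A litters. For Sqle, the residuals of littermates correlated at 0.92 over 8 litters, which was above 99.5% of the genes tested in brain. The median over the 7 genes was 0.56, against 0.16 for all genes (5th to 95th percentile -0.59 to 0.76), and the lowest was Idi1 at -0.28. In liver the corresponding medians were 0.44 and 0.16, and in lung 0.36 and 0.26. When the mean of each litter was removed as well, the median r of the 21 pairs in brain dropped to 0.02. Litter 2851 was above 0 in all 6 of its libraries and litter 2875 below 0 in all 6. What littermates share, such as the dam and the handling of a litter, cannot be told apart here.

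The genes whose residuals followed the mean of the 7 most closely differed between tissues. By rule the highest 5 per tissue were taken. In liver they were Mtmr11 (r = 0.94), the fatty acid elongase Elovl6 (0.92), the clock repressor Cry1 (0.91), the sterol oxidase Msmo1 (0.91) and Cox7b (0.88), over 16 libraries. In lung, Fads2, a fatty acid desaturase (0.93), Msmo1 (0.92), Hsd17b4 (0.85) and Casp8 (0.84) were among the 5, over 15 libraries. In brain they were Slc6a7 (0.89), Lpcat1 (0.87), Mas1 (0.87), Dclk1 (0.87) and Pcsk2 (0.86), over 16 libraries. Over all 47 libraries, Msmo1 (0.92), the squalene synthase Fdft1 (0.81), Cry1 (0.81) and the citrate lyase Acly (0.81) were among the 5. Of the fixed lists, the 11 genes of the sterol arm had a median r of 0.72 with the mean of the 7 in liver, 0.48 in lung and 0.59 in brain, and the 7 genes of fatty acid synthesis 0.64, 0.07 and 0.67, where all genes had medians of 0.03, -0.02 and 0.06. The 5 other SREBP regulators had medians of 0.00, -0.20 and 0.07. In brain, the 4 cell cycle markers were all negative (r from -0.60 to -0.50) the 6 erythroid markers too (-0.61 to -0.15), and the 4 neuronal markers all positive (0.18 to 0.37). In lung the same cell cycle markers were all positive (0.31 to 0.54). In liver the 6 hepatocyte markers had a median r of 0.47 (-0.21 to 0.69) and the 7 neutrophil markers were all positive (0.05 to 0.61). Their part in the covariation of the 7 genes was not tested.

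**Figure D5:**
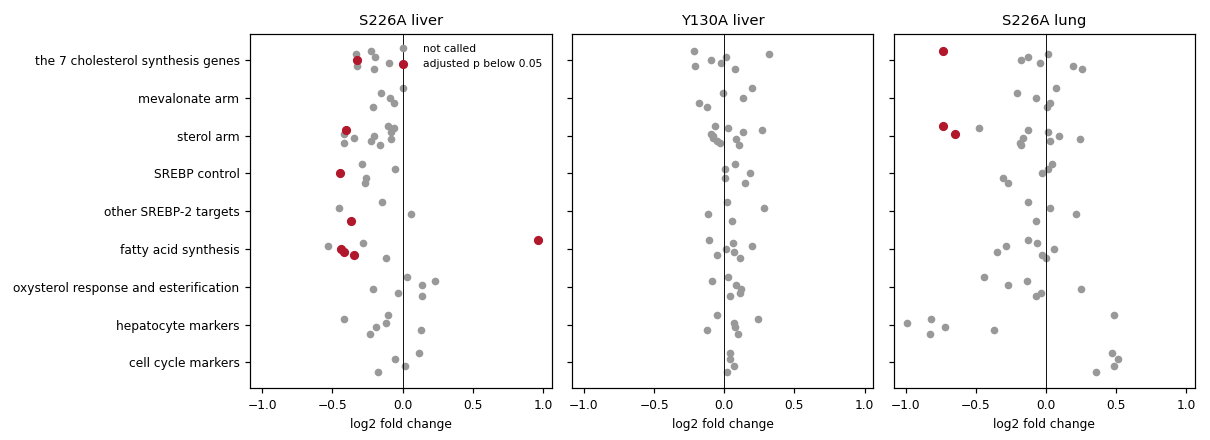
Log2 fold change of each gene of the lists in S226A liver, Y130A liver and S226A lung, with 1 point per gene and red points at an adjusted p below 0.05. In S226A liver the 11 genes of the sterol arm and the 5 other SREBP regulators lie below 0 and Me1 stands apart at 0.96, while no point is red in Y130A liver.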

How the data were processed

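RNA of liver, lung and brain was sequenced in 47 libraries. Per the labels and the methods, the authors trimmed the reads (Trim Galore 0.6.5, FastQC 0.11.5), aligned them to GRCm38 with STAR 2.6.0b and deposited raw read counts per gene, without normalization. Whether strand was used in counting is not given in the sources used here. Groups were taken from the labels.

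All counts were fitted together with edgeR 4.0.16 (R 4.3.3) by the quasi-likelihood test, with 1 coefficient per group, TMM scaling and filterByExpr (minimum count 10, minimum total 15), which left 16892 genes. Called means a Benjamini-Hochberg adjusted p below 0.05 over these genes, and between tissues also a log2 fold change beyond 1. The standard error is the size of the log2 fold change over the square root of F. The fit was tested on simulated counts with planted changes of at least 1 on the log2 scale. These held no litter effect and no spread particular to a tissue. The simulation therefore does not check smaller changes or the shared estimate of spread. Alternatives were DESeq2 1.42.0, RLE size factors, no filter, only the libraries compared, the study's stringent criteria (adjusted p below 0.01, log2 fold change beyond 1, standard error below 1), litter or embryo as block, both litter sets alone, no squamous livers and each library left out. Exact permutation tests used log2(normalized count + 1). Their p-values rest on the embryos of the groups compared. The p-values of the main edgeR fit rest on 1 estimate of spread per gene, shared by all groups and tissues. That fit treats the tissues of an embryo as independent libraries. Counts of PCR reads are not independent molecules. Residuals used log2 CPM with a prior count of 2.

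Litter numbers in the titles pair the samples: residuals over genes correlated above 0.1 in 12 of 23 pairs of littermates (median 0.10) and in 4 of 69 other pairs (median -0.03). Gene models for lengths and overlaps were GENCODE M21 of GRCm38. Named were the 7 genes, in comparisons with a called gene up to 4 genes per list with the smallest adjusted p, and the 5 genes most like the 7 per tissue. The 7 genes and all lists (6 lists with 38 pathway genes, 10 lists with 53 markers) were chosen with earlier results of these data known, and the comparison of littermates' residuals after the values were seen. Some genes of the route are not reported here. The libraries of a group are separate embryos.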

Additional observations from a re-analysis of the deposited data

Results flagged for a closer look

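Among the 77 groups of 4 libraries examined for the 7 genes, 6 held a library whose gap to the nearest of the others passed Dixon's 95% critical value for 4 samples, where chance gives about 1 group in 20. In liver, Idi1 was at 37.4 CPM in wild-type replicate 4 of the S226A litters against 26.8 to 28.6 CPM in the other 3, Insig1 was at 558 CPM in replicate 3 of the same group against 711 to 722 CPM, and Sqle was at 166 CPM in wild-type replicate 3 of the Y130A litters against 214 to 222 CPM. In lung, Idi1 was at 4.98 CPM in S226A replicate 3 against 7.22 to 7.52 CPM, and Fdps was at 6.47 CPM in wild-type replicate 1 of the S226A litters against 3.29 to 3.82 CPM. In brain, Insig1 was at 88.6 CPM in wild-type replicate 1 of the Y130A litters against 96.6 to 97.7 CPM. Idi1 and Fdps, which share sequence with pseudogenes, account for 3 of the 6.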

How the results depend on the processing

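The number of the 7 genes called in S226A liver (1) fell to 0 by the stringent criteria, and in S226A lung (1) to 0 by the stringent criteria and in a fit of those lungs alone. With litter as replicate block, 1 gene instead of 0 was called for the S226A minus the Y130A effect in liver (Insig1) and 1 instead of 0 for the S226A effect in liver minus lung (Hmgcs1), and the block changed no other count among the 7. The shares of all genes called with the block are not given here. Without the fold limit, 6 genes instead of 3 were called between wild-type liver and brain, where 87.8% of all genes had an unadjusted p below 0.05 (edgeR). Between the wild types of both litter sets, fits of only the libraries compared called 0 instead of 1 gene in lung and 1 instead of 0 in brain. In brain, the median r of the pairs was 0.0170 with litter removed, against 0.44. The cause of these shifts was not tested. Leaving out 1 library gave 0 to 1 called genes in S226A liver and in S226A lung, 0 to 1 for the S226A minus the Y130A effect in liver and in lung, 0 to 2 for the S226A effect in liver minus lung and 0 to 1 in lung minus brain. The sign turned in fits without 1 library for Fdps in S226A liver (-0.21 to 0.0529), for Sqle between wild-type liver and brain (-0.0421 to 0.0233) and for Insig1 between wild-type lung and brain (-0.0579 to 0.0791). Within the S226A litters alone, lung minus brain was -0.0673 for Insig1 and 0.20 for Srebf2, of the opposite sign. The standard errors against wild-type littermates were smallest for Sqle and largest for Fdps.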
